A study of Homo sapiens with 15 samples.

Results

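The enzymes that build and sulfate glycosaminoglycan chains were examined as 41 listed genes, of which 37 could be tested among the 16872 genes tested in the whole series. MH7A, an established human synovial cell line, was profiled on Affymetrix Human Gene 1.0 ST arrays, with 1 array of each of 5 conditions in each of 3 experiments. GlcN cells received 5 mM glucosamine (GlcN, an amino sugar) for 2.5 h before IL-1β was added at 15 pg/ml. By the paper's total incubation time, GlcN stayed present through the 13 h of stimulation. GlcN+alloxan cells received 5 mM alloxan, which inhibits the O-GlcNAc transferase, for 30 min and then 2 mM alloxan with 5 mM GlcN before the same stimulation. Alloxan cells were stimulated with IL-1β in the presence of alloxan without GlcN, and the labels give no separate dose for them. Cells with IL-1β alone were the reference for these 3 conditions, and non-stimulated resting cells were the reference for IL-1β alone. The paper describes treatment in medium free of serum and antibiotics. All cells were 1 line in culture, so that no condition represents synovial tissue.

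Glycosaminoglycans are long sugar chains attached to core proteins, and the assembled proteoglycans fill the matrix of cartilage and synovium and cover the cell surface. A short linker is first built on a serine of the core protein. The next sugar decides whether the chain becomes chondroitin sulfate or heparan sulfate, and sulfotransferases and epimerases then modify the growing chain. Sulfation in turn sets which growth factors, chemokines and enzymes the chain binds.

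The list held 6 linker enzymes, 6 enzymes of the chondroitin chain, 9 of chondroitin sulfation and epimerization, 5 of the heparan chain, 13 of heparan modification and 2 endosulfatases. NDST2 was not analysed here because no cluster of probes carried its symbol alone. CSGALNACT1, NDST3 and NDST4 lay below the filter on dim genes, with mean signals at the 16.3, 11.3 and 12.7 percentile of the arrays. For HS6ST1, which had 2 clusters, the one with the higher mean was used. HS3ST3A1 and HS3ST3B1 encode closely related enzymes, and signal shared between their probes was not tested.

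Values are log2 signals after RMA (robust multi-array averaging), and a difference of 1 is a 2-fold change. Array medians were 6.18 to 6.21 in experiment 1, but 7.14 to 7.19 in the second experiment and 7.49 to 7.54 in the last, so that conditions were compared within an experiment. Of 10 synovial fibroblast markers, VIM, COL1A1 and THY1 were bright, from the 98.3 to the 99.3, the 86.3 to the 94.8 and the 74.1 to the 84.2 percentile of their arrays. COL1A2 and COL3A1 spanned the 63.7 to 80.6 and the 58.1 to 77.4 percentile. COL6A3 (26.4 to 31.3), PDPN (24.2 to 32.5), FAP (19.2 to 40.5) and CDH11 (35.2 to 52.1) were lower. The synovial lining gene PRG4 was dim, at the 13.1 to 15.6 percentile, as was the leukocyte gene PTPRC at the 9.0 to 12.3 percentile. CD68 was bright at the 82.0 to 86.1 percentile. The macrophage genes CD14, CD163, CSF1R and MARCO lay between the 18.5 and the 48.1 percentile. The endothelial genes PECAM1, VWF, CDH5 and KDR lay between 19.3 and 43.3. Epithelial EPCAM, KRT5, KRT14 and CDH1 spanned 15.5 to 70.0, and chondrocyte ACAN, COL2A1, SOX9 and COMP 28.9 to 67.2. These ranges overlap those of the fibroblast markers, so the percentiles do not separate the cell types. In a culture, fewer cells that express a gene and less RNA per cell cannot be told apart.

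The promoters of the pair of members with the largest rise with GlcN and of the member with the largest fall are given here, as in RefSeq for GRCh38.p14. Each run is the 250 bases before the gene start, 5′ to 3′ on the strand of the gene, with matches to the searched motifs in capitals. B4GALT7 lies at chr5:177599882-177600131 on the plus strand, CSGALNACT2 at chr10:43138195-43138444 on the plus strand and HS3ST3A1 at chr17:13601930-13602179 on the minus strand.
B4GALT7: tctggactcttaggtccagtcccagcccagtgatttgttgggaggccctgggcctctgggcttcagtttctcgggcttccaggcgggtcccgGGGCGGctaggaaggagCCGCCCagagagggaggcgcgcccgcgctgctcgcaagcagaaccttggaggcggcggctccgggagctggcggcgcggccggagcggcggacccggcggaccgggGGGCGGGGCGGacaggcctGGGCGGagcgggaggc
CSGALNACT2: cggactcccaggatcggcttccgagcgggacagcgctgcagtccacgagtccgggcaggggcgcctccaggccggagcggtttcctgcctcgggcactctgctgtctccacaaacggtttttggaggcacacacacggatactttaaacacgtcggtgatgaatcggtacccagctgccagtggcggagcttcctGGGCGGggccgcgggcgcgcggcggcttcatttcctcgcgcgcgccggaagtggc
HS3ST3A1: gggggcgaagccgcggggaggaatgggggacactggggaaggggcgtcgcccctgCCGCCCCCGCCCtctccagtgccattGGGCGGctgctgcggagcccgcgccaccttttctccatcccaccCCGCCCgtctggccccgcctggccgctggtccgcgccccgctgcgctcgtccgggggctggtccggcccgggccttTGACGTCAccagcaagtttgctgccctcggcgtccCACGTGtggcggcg
The GC box GGGCGG, searched like the others on both strands with overlapping matches counted, occurred 5 times before B4GALT7, once before CSGALNACT2 and 4 times before HS3ST3A1. Of the 41 listed members, 37 had a promoter to search. The GC box occurred before 33 of these 37, without CSGALNACT1, EXT1, EXTL3 and SULF1, and before 42.6% of all 35116 promoters. Those promoters were not limited to genes on the arrays. The printed windows of B4GALT7, CSGALNACT2 and HS3ST3A1 were 74.4%, 67.2% and 76.0% G and C, beside a median of 58.0% for all promoters. Whether base composition sets the counts was not tested. HS3ST3A1 also held 1 cyclic AMP response element TGACGTCA and 1 E-box CACGTG. The cyclic AMP response element occurred before 4 of the 37 members and 1.65% of all promoters, and the E-box before 5 of the 37 members and 6.34% of all promoters. The C/EBP-ATF element TGATGNAA occurred before 0 of the 37 members and 3.14% of all promoters, and the unfolded protein response element before 0 members and 0.074% of all promoters. These letters are a description of the windows and do not show that a factor binds there.

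Over all 5 conditions together, 9 of the 37 tested members differed in the moderated F test of limma with the experiment as a block, which is 24.3% of the members against 25% of all genes tested. The 9 were B4GALT7, CSGALNACT2, CHPF2, CHST11, EXT1, NDST1, GLCE, HS6ST1 and HS3ST3A1. The list as a whole was therefore called about as often as any gene, and the differences lay in single enzymes. With the experiment left out of the fit, 0 members were called in any comparison and 0 reached an unadjusted p under 0.05. The standard error of every GlcN difference was then 0.596. In simulated data that fit recovered 0 of 50 genes changed 4-fold, so it could not call differences of the size seen here.

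Against IL-1β alone, GlcN changed 8 of the 37 members, or 21.6%, beside 11.9% of all genes. It raised 2 members, B4GALT7 and CSGALNACT2, where 5.29% of all genes rose. It lowered 6 members, XYLT2, CHPF2, CHST11, EXT1, GLCE and HS3ST3A1, where 6.62% of all genes fell. The median difference of the members was -0.048 and that of all genes was 0.007.

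GlcN+alloxan changed 9 members against IL-1β alone, or 24.3%, beside 17.5% of all genes. B4GALT7, CSGALNACT2 and HS6ST1 rose (9.06% of all genes rose), and CHST11, EXT1, EXT2, NDST1, GLCE and HS3ST3A1 fell (8.47% of all genes fell). Alloxan changed 6 members, or 16.2%, beside 13.3% of all genes. B4GALT7 and HS6ST1 rose (6.13% of all genes rose), and CHST11, EXT1, NDST1 and HS3ST3A1 fell (7.21% of all genes fell). The median difference of the members was -0.02 with GlcN+alloxan and 0.021 with alloxan, against -0.003 and 0.015 for all genes. These 3 comparisons share the arrays of IL-1β alone, so that their calls are not independent of each other.

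**Figure D1:**
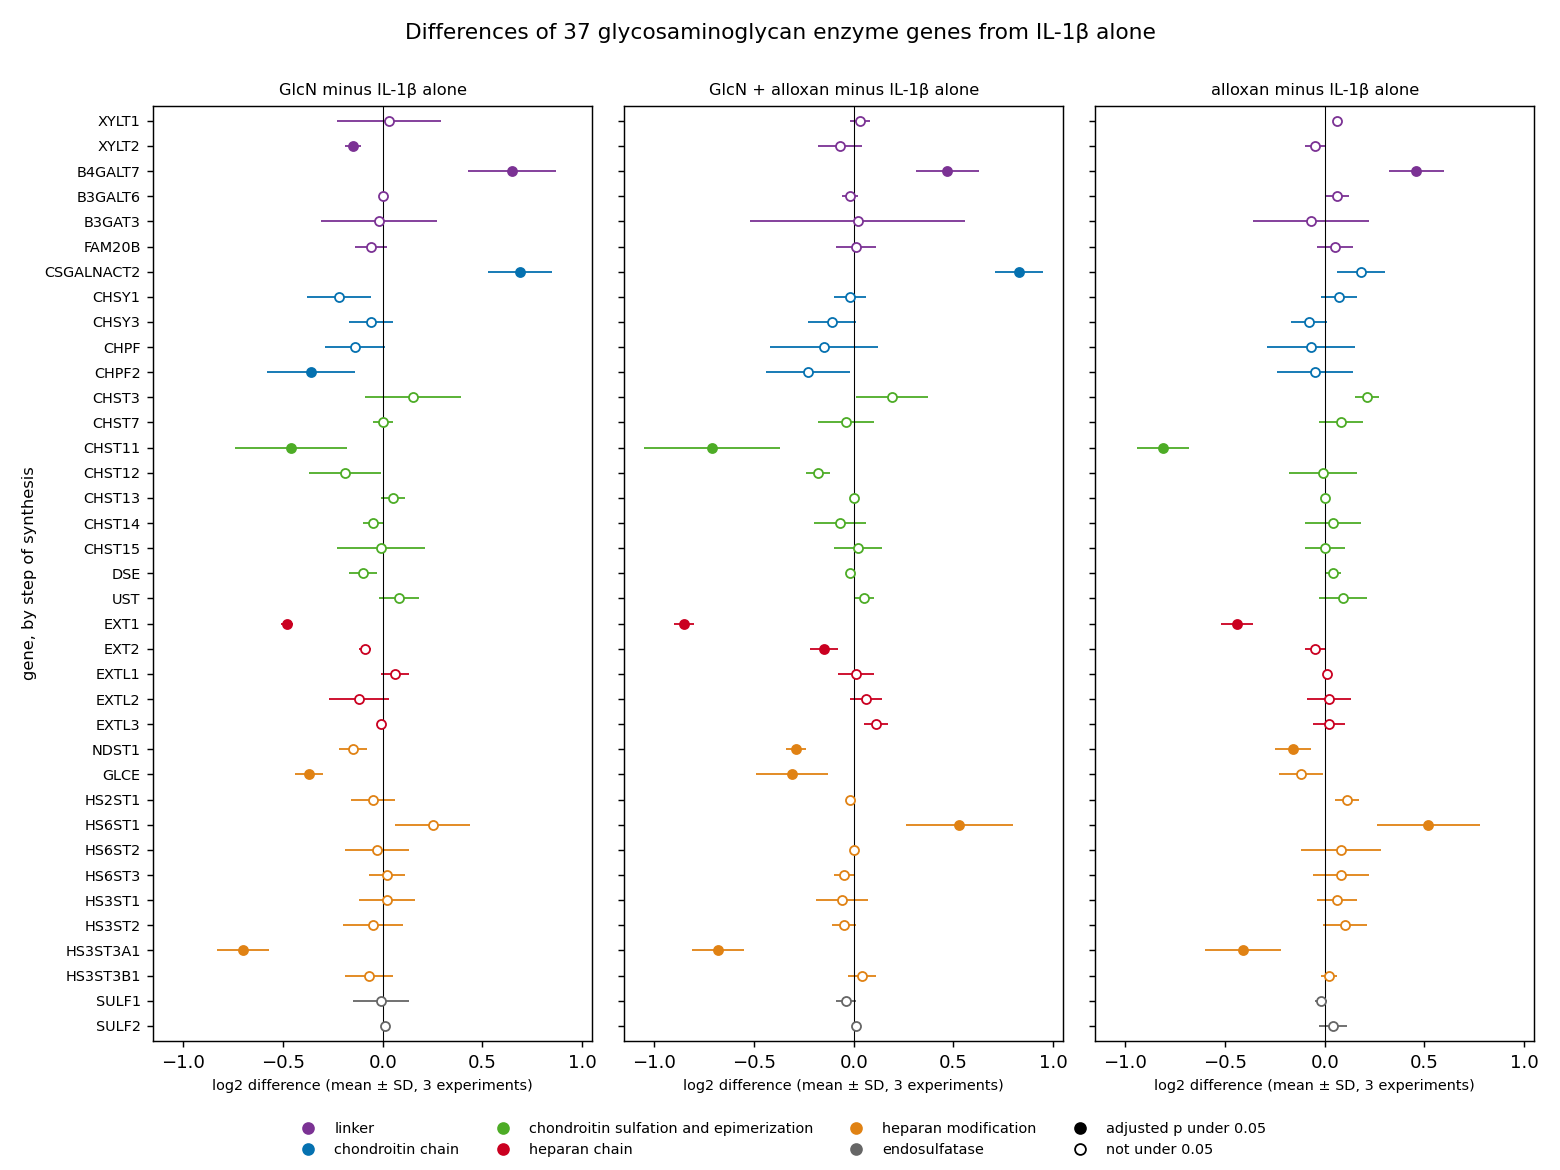
Mean log2 difference from IL-1β alone (horizontal axis, ± SD of 3 experiments) for the 37 tested members, in rows by step of synthesis, with GlcN at the left, GlcN+alloxan in the middle and alloxan at the right. Filled points have an adjusted p under 0.05: 8, 9 and 6 members in the 3 panels, while the 26 members called in no comparison lie between -0.22 and 0.21.

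Of the linker enzymes, B4GALT7 rose in all 3 treated conditions. B4GALT7 adds the first galactose of the linker. Its log2 signal in experiments 1, 2 and 3 was 8.15, 9.36 and 9.67 in GlcN cells, 7.86, 9.07 and 9.71 in GlcN+alloxan cells, and 7.93, 9.08 and 9.60 in alloxan cells. It was 7.57, 8.46 and 9.20 in cells with IL-1β alone and 7.81, 8.41 and 9.50 in resting cells. In every experiment each of the 3 treated arrays lay above IL-1β alone. The difference from IL-1β alone was 0.65 ± 0.22 with GlcN (SD, n = 3, adjusted p = 0.00485), 0.47 ± 0.16 with GlcN+alloxan (adjusted p = 0.0184) and 0.46 ± 0.14 with alloxan (adjusted p = 0.027). With only 2 experiments these calls rested on which were kept. Without experiment 1 the differences were 0.69, 0.56 and 0.51 (adjusted p = 0.073, 0.0975 and 0.157), and without experiment 3 they were 0.74, 0.45 and 0.49 (adjusted p = 0.0538, 0.151 and 0.147). The alloxan call was also lost when any 1 of its 6 arrays was left out (adjusted p from 0.0566 to 0.107). The GlcN+alloxan call was lost without the IL-1β array of experiment 2 or the GlcN+alloxan array of experiment 2 or 3 (adjusted p from 0.0752 to 0.0846).

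XYLT2, one of the xylosyltransferases that start the linker on the core protein, was slightly lower with GlcN, at -0.15 ± 0.04 (SD, n = 3, adjusted p = 0.0383). Its signal was 7.82, 9.03 and 9.52 in GlcN cells, against 7.97, 9.22 and 9.63 in cells with IL-1β alone. GlcN+alloxan cells had 7.96, 9.03 and 9.63, alloxan cells 7.96, 9.12 and 9.60, and resting cells the same values as alloxan cells. GlcN was the lowest array in experiments 1 and 3 and shared the lowest value with GlcN+alloxan in experiment 2. The call was lost without any 1 experiment (adjusted p from 0.14 to 0.169) and without any 1 of the 6 arrays except that of IL-1β alone in experiment 3 (adjusted p from 0.0647 to 0.181). Quantile normalization, a shift to equal medians and the intensity trend also ended it (adjusted p = 0.104, 0.0903 and 0.053). The other linker enzymes XYLT1, B3GALT6, which adds the second galactose, B3GAT3, which adds the glucuronic acid, and FAM20B, which phosphorylates the xylose, had differences between -0.07 and 0.06.

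Of the chondroitin chain enzymes, CSGALNACT2 had the largest rise of all members. It adds the N-acetylgalactosamine that commits the linker to chondroitin. Its signal was 8.60, 9.54 and 9.86 in GlcN cells, 8.63, 9.73 and 10.07 in GlcN+alloxan cells, and 8.08, 9.09 and 9.30 in alloxan cells. It was 7.77, 9.03 and 9.12 with IL-1β alone and 7.79, 8.89 and 9.22 in resting cells. In every experiment both conditions with GlcN lay above the other 3. The difference from IL-1β alone was 0.69 ± 0.16 with GlcN, a 1.62-fold level (SD, n = 3, adjusted p = 3.94e-05), and 0.83 ± 0.12 with GlcN+alloxan, a 1.78-fold level (adjusted p = 8.07e-06). Alloxan gave 0.18 ± 0.12 and missed the threshold (adjusted p = 0.0754). GlcN+alloxan exceeded alloxan by 0.65 ± 0.11 (adjusted p = 0.000168), and all 3 calls of CSGALNACT2 were kept without any 1 experiment or array.

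CHPF2, a partner of the chondroitin polymerase, was lower with GlcN, at -0.36 ± 0.22 (SD, n = 3, adjusted p = 0.0146). It had 7.67, 8.93 and 9.25 in GlcN cells, 7.78, 9.08 and 9.37 in GlcN+alloxan cells, 8.08, 9.25 and 9.45 in alloxan cells, 8.01, 9.52 and 9.40 with IL-1β alone and 8.08, 9.32 and 9.37 in resting cells. The GlcN array was the lowest of each experiment. The value with GlcN+alloxan was -0.23 ± 0.21 (adjusted p = 0.0715). The GlcN call was lost without experiment 1 (-0.37, adjusted p = 0.119) or experiment 2 (-0.24, adjusted p = 0.224), and without the GlcN array (-0.31, adjusted p = 0.0804) or the IL-1β array (-0.26, adjusted p = 0.063) of experiment 2. The polymerase subunits CHSY1, CHSY3 and CHPF lay between -0.22 and 0.07 and none passed the test, with CHSY1 at -0.22 with GlcN (adjusted p = 0.0736).

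Of the enzymes of chondroitin sulfation and epimerization, CHST11 was called in all 3 comparisons with IL-1β alone and the other 8 in none. CHST11 sulfates the N-acetylgalactosamine of chondroitin. It had 8.69, 10.06 and 10.59 in GlcN cells, 8.52, 9.74 and 10.32 in GlcN+alloxan cells, and 8.25, 9.87 and 10.15 in alloxan cells. It had 8.96, 10.83 and 10.92 with IL-1β alone and 8.78, 10.66 and 10.84 in resting cells. In every experiment the 3 treated arrays lay below both others. The differences were -0.46 ± 0.28 with GlcN (SD, n = 3, adjusted p = 0.0213), -0.71 ± 0.34 with GlcN+alloxan (adjusted p = 0.00121) and -0.81 ± 0.13 with alloxan (adjusted p = 0.00095). The GlcN call was lost without any 1 experiment (-0.55, -0.30 and -0.52, adjusted p = 0.0644, 0.0665 and 0.162), and without the GlcN array (-0.37, adjusted p = 0.117) or the IL-1β array (-0.35, adjusted p = 0.107) of experiment 2. The alloxan call was lost without experiment 3 (-0.83, adjusted p = 0.058). The GlcN+alloxan call was kept without any 1 experiment or array. CHST3 and CHST7, which sulfate another position of the same sugar, CHST12 and CHST13, which act like CHST11, CHST14 and the epimerase DSE of dermatan sulfate, CHST15, which adds a further sulfate, and UST, which sulfates the uronic acid, lay between -0.19 and 0.21.

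Of the heparan chain enzymes, EXT1 had the lowest p of all members. EXT1 and EXT2 form the polymerase that lengthens heparan sulfate. EXT1 had 9.31, 10.66 and 11.34 in GlcN cells, 8.91, 10.31 and 10.97 in GlcN+alloxan cells, and 9.32, 10.76 and 11.35 in alloxan cells. It had 9.82, 11.12 and 11.82 with IL-1β alone and 9.76, 11.10 and 11.69 in resting cells. In each experiment GlcN+alloxan was lowest, GlcN and alloxan lay close together above it, resting cells came next and IL-1β alone was highest. The difference was -0.48 ± 0.03 with GlcN (SD, n = 3, adjusted p = 2.73e-05), -0.85 ± 0.05 with GlcN+alloxan, a 0.553-fold level (adjusted p = 8.65e-07), and -0.44 ± 0.08 with alloxan (adjusted p = 6.26e-05). GlcN+alloxan was also lower than each agent alone, at -0.37 ± 0.02 from GlcN (adjusted p = 0.000457) and -0.41 ± 0.04 from alloxan (adjusted p = 0.000213). All 5 calls of EXT1 were kept without any 1 experiment or array.

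EXT2 was called once, with GlcN+alloxan, at -0.15 ± 0.07 (SD, n = 3, adjusted p = 0.0478). It had 10.32, 11.28 and 11.72 in GlcN+alloxan cells, against 10.48, 11.49 and 11.79 with IL-1β alone. GlcN cells had 10.36, 11.43 and 11.73, alloxan cells 10.49, 11.43 and 11.69, and resting cells 10.49, 11.46 and 11.73. GlcN+alloxan was the lowest array in experiments 1 and 2 only. The call was lost without any 1 experiment (-0.15, -0.12 and -0.19, adjusted p = 0.182, 0.355 and 0.0672) and without any 1 of the 6 arrays except that of GlcN+alloxan in experiment 3 (adjusted p from 0.101 to 0.203). A shift to equal medians also ended it (adjusted p = 0.116), as did, at the threshold itself, testing all genes without the filter. EXTL3, which adds the sugar that commits the linker to heparan sulfate, and its relatives EXTL1 and EXTL2 lay between -0.12 and 0.11, and none passed the test.

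Of the heparan modification enzymes, HS3ST3A1 had the largest fall with GlcN of all members. It adds a rare sulfate to the glucosamine of heparan sulfate. It had 7.70, 8.83 and 9.12 in GlcN cells, 7.50, 9.07 and 9.15 in GlcN+alloxan cells, and 7.70, 9.34 and 9.47 in alloxan cells. It had 8.33, 9.68 and 9.74 with IL-1β alone and 8.15, 9.74 and 9.58 in resting cells. In every experiment the 3 treated arrays lay below both others. The differences were -0.70 ± 0.13 with GlcN, a 0.614-fold level (SD, n = 3, adjusted p = 0.000688), -0.68 ± 0.13 with GlcN+alloxan (adjusted p = 0.000456) and -0.41 ± 0.19 with alloxan (adjusted p = 0.0139). Both calls with GlcN present were kept without any 1 experiment or array. The alloxan call was lost without any 1 experiment (-0.31, -0.45 and -0.48, adjusted p = 0.146, 0.0614 and 0.0974) and without the alloxan array (-0.33, adjusted p = 0.0716) or the IL-1β array (-0.37, adjusted p = 0.061) of experiment 1. Its close relative HS3ST3B1 was not called, with -0.07, 0.04 and 0.02 in the same 3 comparisons. HS3ST3B1 had a weaker mean signal, at the 40.4 percentile against 74.1 for HS3ST3A1, and the same value of 6.38 in every array of experiment 2.

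GLCE, the epimerase that turns glucuronic acid into iduronic acid, was lower in both conditions with GlcN. It had 9.29, 10.51 and 10.63 in GlcN cells, 9.39, 10.42 and 10.80 in GlcN+alloxan cells, 9.56, 10.70 and 10.91 in alloxan cells, 9.59, 10.94 and 11.01 with IL-1β alone and 9.63, 11.00 and 11.00 in resting cells. In every experiment both arrays with GlcN were the lowest of the 5. The difference was -0.37 ± 0.07 with GlcN (SD, n = 3, adjusted p = 0.00426), -0.31 ± 0.18 with GlcN+alloxan (adjusted p = 0.00749) and -0.12 ± 0.11 with alloxan (adjusted p = 0.285). The GlcN call was lost without experiment 1 (-0.40, adjusted p = 0.0581) or experiment 3 (-0.37, adjusted p = 0.0773), as was the GlcN+alloxan call (-0.36 each, adjusted p = 0.0618 and 0.0637).

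NDST1, which removes acetyl groups from the chain and puts sulfate in their place, was lower in both conditions with alloxan. It had 9.11, 10.23 and 10.93 in GlcN cells, 8.99, 10.03 and 10.82 in GlcN+alloxan cells, 9.10, 10.23 and 10.89 in alloxan cells, 9.23, 10.32 and 11.15 with IL-1β alone and 9.20, 10.23 and 10.92 in resting cells. GlcN+alloxan was the lowest array and IL-1β alone the highest in every experiment. The difference was -0.29 ± 0.05 with GlcN+alloxan (SD, n = 3, adjusted p = 0.000936), a call kept without any 1 experiment or array, and -0.16 ± 0.09 with alloxan (adjusted p = 0.0324). GlcN gave -0.15 ± 0.07 (adjusted p = 0.0552). The alloxan call was lost without any 1 experiment (-0.18, -0.20 and -0.11, adjusted p = 0.132, 0.106 and 0.241), and without the alloxan array of experiment 1 or 3 or the IL-1β array of experiment 2 or 3 (adjusted p from 0.0602 to 0.128). A shift to equal medians also ended it (adjusted p = 0.0837).

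HS6ST1, which sulfates glucosamine in heparan sulfate, was higher in both conditions with alloxan. It had 8.02, 8.93 and 9.47 in GlcN cells, 8.22, 9.08 and 9.95 in GlcN+alloxan cells, 8.20, 9.16 and 9.88 in alloxan cells, 7.98, 8.52 and 9.17 with IL-1β alone and 7.97, 8.68 and 9.49 in resting cells. In every experiment both arrays with alloxan were the highest of the 5. The difference was 0.53 ± 0.27 with GlcN+alloxan (SD, n = 3, adjusted p = 0.002) and 0.52 ± 0.26 with alloxan (adjusted p = 0.00335), while GlcN gave 0.25 ± 0.19 (adjusted p = 0.102). Both calls were lost without experiment 2 (0.51 and 0.47, adjusted p = 0.0666 and 0.097) or experiment 3 (0.40 and 0.43, adjusted p = 0.0701 and 0.0806). The second cluster annotated as HS6ST1 gave 0.64 ± 0.23 with GlcN+alloxan, 0.61 ± 0.25 with alloxan and 0.31 ± 0.16 with GlcN. Whether its probes measure a separate locus was not tested. HS2ST1, which sulfates the uronic acid, and HS6ST2, HS6ST3, HS3ST1 and HS3ST2 lay between -0.06 and 0.11.

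**Figure D2:**
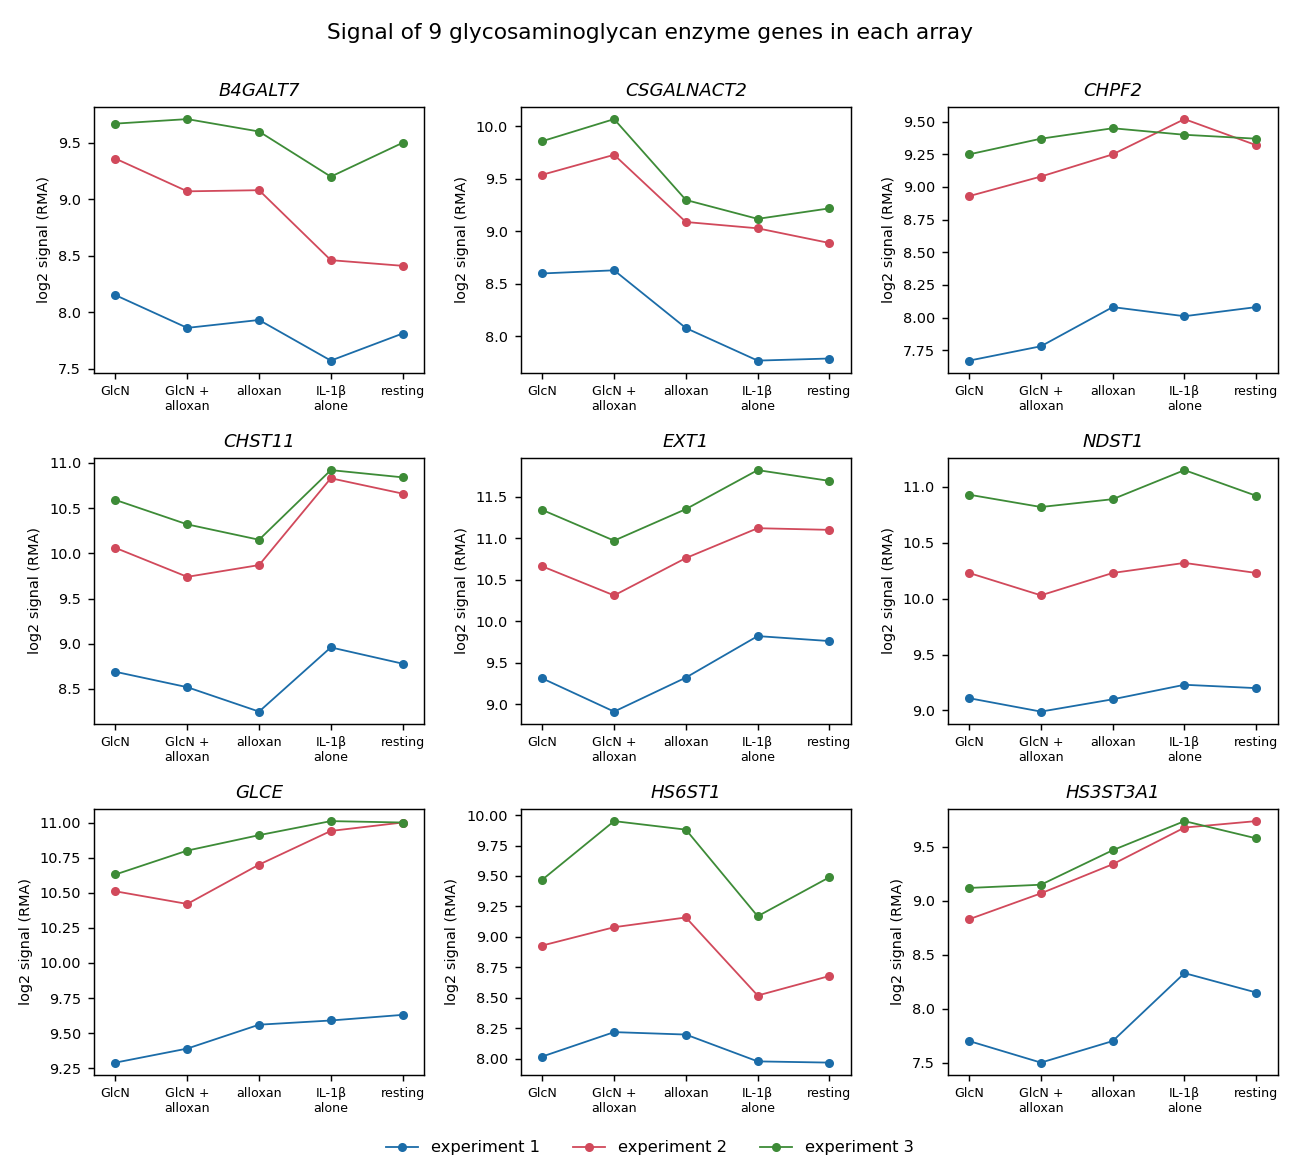
Log2 signal after RMA (vertical axis, scaled per gene) of the 9 members called over the 5 conditions, with GlcN, GlcN+alloxan, alloxan, IL-1β alone and resting cells along the horizontal axis; each line joins the 5 arrays of 1 experiment. The lines run nearly parallel at different heights, with CSGALNACT2 high in both conditions with GlcN and EXT1 lowest with GlcN+alloxan in all 3 experiments.

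The endosulfatases SULF1 and SULF2, which remove sulfates from finished heparan chains outside the cell, lay between -0.04 and 0.04 in the 3 comparisons, and SULF1 was dim, with a mean signal at the 18.5 percentile. IL-1β alone was set against resting cells to see what the cytokine itself did, and 0 of the 37 members were called, as were 0.0% of all genes, with limma. In limma an unadjusted p under 0.05 was reached by 2 members and by 977 of all 16872 genes. The methods' t-test, run on the deposited log2 values and not on the study's normalized ones, also called 0 after adjustment. The largest difference of a member was 0.16 in size, and the smallest adjusted p was 0.752.

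Alloxan was added to GlcN in the study to block the O-GlcNAc transferase, so the combined condition was compared with each agent alone. GlcN+alloxan differed from GlcN in 1 member, the lower EXT1 described above, where 6.79% of all genes were called, 3.27% higher and 3.52% lower. It differed from alloxan in 2 members, CSGALNACT2, which was higher, and EXT1, which was lower, where 3.53% of all genes were called, 1.86% higher and 1.67% lower. The interaction is the difference of GlcN+alloxan from IL-1β alone minus the sum of the differences of each agent. With limma it was called for 0 members and for 0.0711% of all genes, 0.0119% above and 0.0593% below the sum.

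An unadjusted p under 0.05 for the interaction was reached in limma by 4 of the 37 members, XYLT2, B4GALT7, CHST11 and HS3ST3A1. It was reached by 1860 of all 16872 genes. The smallest adjusted p of a member was 0.238, for B4GALT7. The intervals below are for single genes and are not adjusted for the number of genes tested. In B4GALT7 the interaction was -0.64 with a 95% interval from -1.01 to -0.27, in CHST11 it was 0.56 (0.22 to 0.91, adjusted p = 0.27) and in HS3ST3A1 0.44 (0.15 to 0.73, adjusted p = 0.306). In each of these 3 the combined difference was smaller in size than the sum in every experiment. In EXT1 and CSGALNACT2 the interaction was 0.07 (-0.05 to 0.20, adjusted p = 0.62) and -0.04 (-0.23 to 0.15, adjusted p = 0.859), so that the interval leaves room for departures from the sum of 0.23 at most in size.

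**Figure D3:**
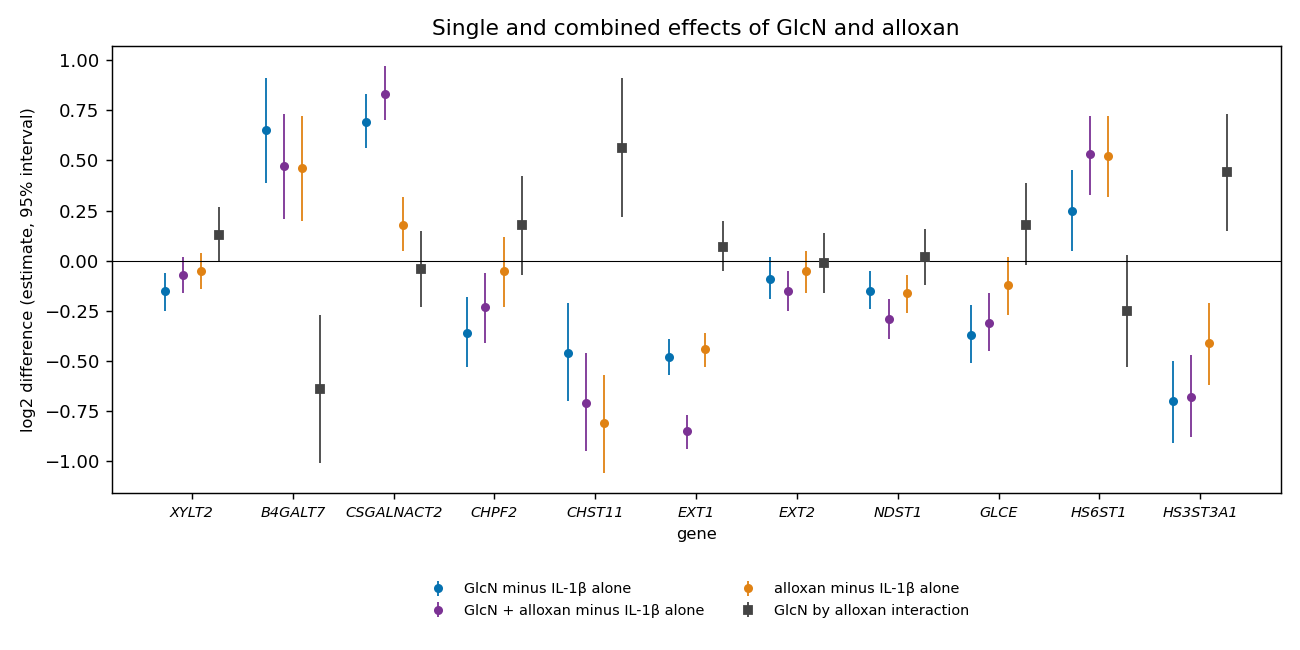
Log2 difference from IL-1β alone (vertical axis, estimate with its 95% interval) of the 11 members called in any comparison, with GlcN in blue, GlcN+alloxan in purple and alloxan in orange. Grey squares give the GlcN by alloxan interaction, which is farthest from 0 in B4GALT7 (-0.64), CHST11 (0.56) and HS3ST3A1 (0.44) and passed the adjusted threshold in none.

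The synthesis of chains also needs activated sugars and sulfate, and 15 of 17 listed genes of that supply were tested. With GlcN 4 rose and 0 fell, with GlcN+alloxan 3 rose and 0 fell, and with alloxan 0 rose and 1 fell. These are 26.7%, 20% and 6.67% of the 15, beside 11.9%, 17.5% and 13.3% of all genes. The comparisons share the arrays of IL-1β alone. Against resting cells, IL-1β alone gave 1 of the 15 a positive difference, with a median of -0.072 and 0 called. UGDH, which makes UDP-glucuronic acid, rose by 0.50 ± 0.26 with GlcN (SD, n = 3, adjusted p = 0.00372) and 0.60 ± 0.15 with GlcN+alloxan (adjusted p = 0.000734), and gave 0.19 ± 0.09 with alloxan (adjusted p = 0.211). SLC35B2, which carries activated sulfate into the Golgi, rose by 0.35 ± 0.12 with GlcN (adjusted p = 0.0109) and 0.37 ± 0.16 with GlcN+alloxan (adjusted p = 0.0049). SLC26A2, a sulfate transporter of the cell surface, was lower with alloxan, at -0.33 ± 0.11 (adjusted p = 0.0149). Like CSGALNACT2, UGDH was higher in GlcN+alloxan than in alloxan cells, by 0.41 (adjusted p = 0.0267).

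Of 5 other enzymes of the same chains, PXYLP1 and DSEL were called in all 3 comparisons with IL-1β alone, 40% of these few genes beside 11.9%, 17.5% and 13.3% of all genes. PXYLP1, which removes the phosphate that FAM20B places on the linker xylose, rose by 0.33 ± 0.08 with GlcN (SD, n = 3, adjusted p = 0.0115), 0.63 ± 0.15 with GlcN+alloxan (adjusted p = 0.000128) and 0.54 ± 0.18 with alloxan (adjusted p = 0.000757). DSEL, a second epimerase of dermatan sulfate, was lower, at -0.26 ± 0.11, -0.27 ± 0.04 and -0.30 ± 0.02 in the same order (adjusted p = 0.013, 0.00828 and 0.00598). FAM20B and DSE, their counterparts among the members, lay between -0.10 and 0.05.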

How the data were processed

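Total RNA of MH7A cells was hybridised to 15 arrays. The deposited log2 values are RMA summaries of each transcript cluster, which the authors made with Affymetrix Expression Console (no version given). Groups and experiment numbers came from the labels. Of 33297 clusters, 19460 carried 1 symbol in the platform annotation, updated through gene IDs of RefSeq GRCh38.p14. For each symbol the brightest cluster was used, provided that 3 or more arrays had it above their own 20th percentile, which left 16872 of 18417 genes. The listed enzymes, gene lists, motifs and tests were chosen with earlier results of these data known.

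Conditions were compared by lmFit and eBayes of limma 3.58.1 (R 4.3.3), two-sided, on all arrays with the experiment as a block, Benjamini-Hochberg adjustment over all genes and a threshold of 0.05. The block was set so that conditions were compared within an experiment. In a check of the pairing, deviations from the group mean correlated at 0.621 to 0.848 in 30 pairs of arrays of 1 experiment. Members past the threshold in the F test or in a comparison with IL-1β alone are given array by array, and up to 3 genes of each further list, by F test p, are named. SDs are over the 3 differences within experiments. No arrays were duplicates (highest correlation 0.996). In 30 of the 37 tested members, arrays of an experiment held identical values, as in 78.5% of all genes. Simulated data for GlcN against IL-1β alone covered 16872 genes. They were the mean of each gene in an experiment plus independent normal noise, with the residual SD of the blocked fit. The block was thus right by construction, and identical values within an experiment were not reproduced. The recovery below therefore does not show that the blocked fit holds for the real values. With the block, 26 of 50 genes changed 1.25-fold were recovered, 48 of 50 changed 1.5-fold and 50 of 50 changed 2-fold, beside 6 false calls. Without the block, 0 of 50 were recovered at each size up to 4-fold. Precision is limited by the number of arrays. The labels do not say how the 3 experiments were separated. With the experiment as a block, p-values measure how far the condition differences vary across the experiments, pooled over all 5 conditions. They do not measure the level differences between experiments, which the block takes out. The methods' t-test was run unpaired on the deposited log2 values, with the Benjamini-Hochberg adjustment, which the study did not apply. The study also lists normalized values, a step that was not repeated, so this is not a rerun of its test. Alternatives were the fit without the block, other filters, clusters and normalizations, an intensity trend, only the groups compared, the methods' t-test and leaving out arrays or experiments.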

Additional observations from a re-analysis of the deposited data

How the results depend on the processing

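The calls depended on the pairing of arrays by experiment. Without the replicate block limma called 0 members in each comparison of 2 conditions, in the interaction and in the F test. Of all genes it called 4 for GlcN, 1 for GlcN+alloxan and 6 in the F test. In simulated data that fit recovered 0 of 50 genes changed 4-fold, so it could not call differences of the size seen here. The methods' t-test, also unpaired and with other inputs than the study's, called 0 members after adjustment in each comparison it was run on. For GlcN it gave 51 of all genes and 0 members an unadjusted p under 0.05. The study itself applied a fold cut-off and no correction for multiple testing. Its lists for GlcN hold HS3ST3A1 among the lowered genes and B4GALT7 and CSGALNACT2 among the raised ones. The 26 called differences had the same size without the block, which the design fixes because each experiment held 1 array of each condition. None reversed under any alternative run. With only the groups compared in a blocked fit, 2 members were called in GlcN+alloxan against IL-1β alone (CSGALNACT2 and EXT1), and 0 in GlcN against IL-1β alone, in alloxan against IL-1β alone and in GlcN+alloxan against GlcN or against alloxan, where 9, 8, 5 and 9 members had an unadjusted p under 0.05. The same fits called 276 of all 16872 genes for GlcN+alloxan, 1 for GlcN and 0 in the other 3 comparisons. In the comparisons without a called member, 2775, 3290, 2781 and 3248 of all genes had an unadjusted p under 0.05, in the same order. Other filters, clusters and normalizations and the intensity trend kept 23 to 26 of the 26 calls, and the calls lost were those of XYLT2, EXT2 and NDST1 with alloxan. Leaving out 1 experiment or 1 array gave 3 to 8 members for GlcN, 5 to 9 for GlcN+alloxan and 1 to 5 for alloxan against IL-1β alone, 1 to 2 for GlcN+alloxan against GlcN, 2 to 2 against alloxan and 3 to 9 in the F test. All genes called moved too, from 675 to 2064 for GlcN, 1373 to 2671 for GlcN+alloxan and 761 to 1885 for alloxan against IL-1β alone. Of the calls of members, 46 of 78 were kept without 1 experiment and 127 of 156 without 1 array. For the genes of the other lists this was not examined.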

Other observations

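The core proteins that carry the chains were mostly lower where they were called. Of 24 listed core proteins 21 were tested, and 7 fell and 0 rose with GlcN, 6 fell and 0 rose with GlcN+alloxan, and 5 fell and 1 rose with alloxan against IL-1β alone. The called shares were 33.3%, 28.6% and 28.6%, beside 11.9%, 17.5% and 13.3% of all genes, of which 6.62%, 8.47% and 7.21% fell. GPC6, a glypican anchored in the cell membrane that carries heparan sulfate, was lower, at -0.45 ± 0.04 with GlcN (SD, n = 3, adjusted p = 0.00449), -1.01 ± 0.24 with GlcN+alloxan (adjusted p = 1.34e-05) and -0.92 ± 0.14 with alloxan (adjusted p = 5.68e-05). CSPG4, a membrane chondroitin sulfate proteoglycan, was lower, at -0.73 ± 0.24, -0.98 ± 0.13 and -0.59 ± 0.14 in the same order (adjusted p = 0.000443, 3.5e-05 and 0.00183). HSPG2, the basement membrane proteoglycan perlecan, was lower, at -0.46 ± 0.25, -0.88 ± 0.21 and -0.63 ± 0.05 (adjusted p = 0.00879, 8.63e-05 and 0.00147). The median difference of the 21 was -0.139, -0.072 and -0.046, against 0.007, -0.003 and 0.015 for all genes.

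Of 14 listed genes of the lysosomal degradation of the chains, 12 were tested, and 0 were called with GlcN, beside 11.9% of all genes. In that comparison 1 of the 12 had an unadjusted p under 0.05 in limma, as did 4183 of all 16872 genes. With GlcN+alloxan 2 fell (16.7%, beside 17.5% of all genes called), and with alloxan 1 fell (8.33%, beside 13.3%). IDUA, which removes iduronic acid, was lower with GlcN+alloxan, at -0.38 ± 0.20 (SD, n = 3, adjusted p = 0.00267). NAGLU, which removes N-acetylglucosamine from heparan sulfate, was lower, at -0.22 ± 0.17 with GlcN+alloxan (adjusted p = 0.0267) and -0.22 ± 0.10 with alloxan (adjusted p = 0.0345). SGSH, which removes N-linked sulfate, gave -0.07 ± 0.09 with GlcN, 0.00 ± 0.01 with GlcN+alloxan and 0.16 ± 0.09 with alloxan, and passed the threshold in none of these.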
